A study of Mus musculus with 36 samples.

Results

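Supporting cells of the fetal mouse gonad were compared between XY and XX fetuses at 12.5 days post coitum (dpc), using 6 of the 36 arrays of the series: 3 of XY cells and 3 of XX cells, chosen by the sex, stage and cell type in the labels. Expression was read on Affymetrix Mouse Gene 1.0 ST arrays and is given on the log2 scale, where a difference of 1 is 2-fold. The XY cells came from Tg(Sox9-cre/ERT2)1Msan/J fetuses bred to C57BL/6, with Sox9 named as the reported gene. The labels name no fluorescent allele and no tamoxifen for this line. The XX cells came from Tg(Sry-EGFP)92Ei fetuses bred to CD-1, in which EGFP stands under Sry control. Reporter line, strain and sex therefore changed together at this stage and cannot be told apart in any difference given here. At 13.5 dpc the lines were the same as at 12.5 dpc, whereas at 11.5 dpc the XY and XX cells both carried Sry-EGFP on the CD-1 background, with 3 arrays in each of these 4 further groups. Gonads were pooled by sex, dissociated with trypsin, stained with DAPI and flow sorted. Whether the 3 arrays of a group hold RNA of separate pools or litters is not stated, so every p-value speaks only of the spread among the arrays, which may be technical.

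Supporting cells are the somatic precursors of Sertoli cells in a testis and of granulosa cells in an ovary. In XY gonads, Sry raises Sox9, and Sox9 together with Fgf9 signalling directs the Sertoli fate, in which cells form cords and secrete anti-Müllerian hormone. In XX gonads, Wnt4 and Rspo1 act through beta-catenin, and Foxl2, Runx1 and follistatin mark the pregranulosa fate, in which cells leave the cell cycle early.

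The sex of the arrays was checked with Xist, which is transcribed from the inactive X chromosome, and with Eif2s3y, a Y-linked gene. Xist had 5.15, 5.70 and 5.78 on the XY arrays, against 11.70, 11.14 and 11.11 on the XX arrays. Eif2s3y had 8.90, 9.34 and 8.82 on the XY arrays, against 4.50, 4.62 and 4.27 on the XX arrays. Sox9, which was used to collect the XY cells and so is no finding, had 11.84, 11.36 and 11.34 on the XY arrays, against 8.70, 8.89 and 8.71 on the XX arrays. The gonadal somatic markers Wt1 and Gata4 lay between 9.74 and 11.68 on all 6 arrays, and neither passed the test (differences of −0.24 and 0.39, adjusted p = 0.408 and 0.0924). XX replicate 1 stood apart in the germ cell markers: the median level of 10 such genes was 6.63 there, against 5.50 and 5.59 on the other XX arrays and 5.75 to 5.89 on the XY arrays. Of these 10 genes, 0 passed the test. Array medians over all genes were 6.93 to 6.99 for XY and 6.74 to 7.01 for XX, with XX replicate 3 the lowest. Correlations between arrays were 0.965 to 0.978 within a sex and 0.927 to 0.959 between the sexes. The small number of arrays limits the precision of every value.

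Of 19103 autosomal genes, 1945 (10.2%) were higher and 1104 (5.78%) were lower in XY cells at an adjusted p under 0.05 (limma, two-sided, Benjamini-Hochberg adjustment). With a difference of at least 1 also required, 764 (4%) were higher and 405 (2.12%) were lower, and at least 4-fold differences were found for 177 and 103. The 3 XY values all lay above the 3 XX values for 13.2% of autosomal genes and all below for 6.94%, and 2733 of the 3049 called genes had groups that did not overlap. The median difference over all autosomal genes was 0.04, the median standard error was 0.17, and the smallest called difference was 0.39 in size. Of the 147 called members of the 29 gene lists, 27 lost the call when at least 1 of the 6 arrays was left out. Each of these apart from Sc5d had a difference of 1.00 or less in size. The deposited values fall into interleaved sets of rows on separate scales. With these sets moved to a shared scale (row sets aligned), 3 called list members lost the call and 28 others gained one, among them Gata4 (0.53), Ctnnb1 (0.41), Acvr2b (0.24), Hey1 (−0.46), Spred1 (0.69) and Cyp17a1 (0.42), none of which passed on the deposited values. The balance of the calls moved both ways with the scaling and with a single array. Higher genes made up 63.8% of the calls on the deposited values, 55.3% with arrays centred (1836 higher, 1483 lower), 50.6% after quantile normalisation (1648 higher, 1611 lower) and 49.2% without XX replicate 3 (1463 higher, 1511 lower), but 68.5% with row sets aligned (3171 higher, 1460 lower) and 71.3% without XX replicate 1 (2017 higher, 810 lower). In sorted pools, fewer cells of a type and less RNA per cell cannot be told apart.

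**Figure D1:**
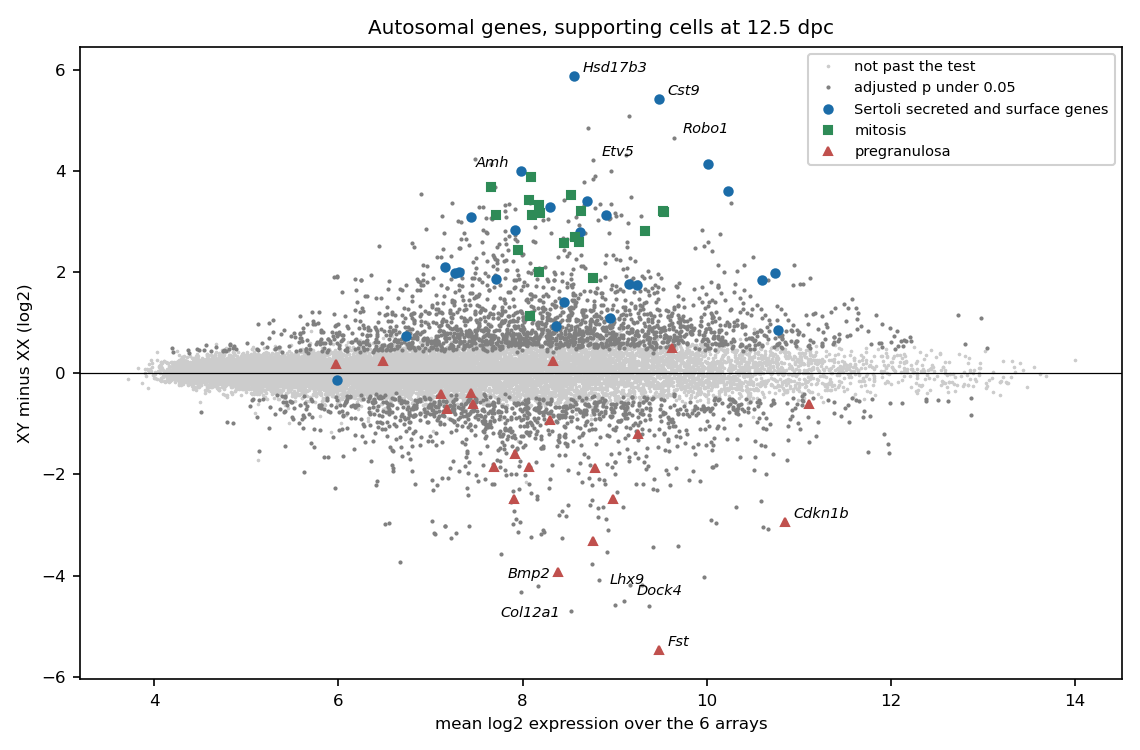
Difference XY minus XX at 12.5 dpc (log2, vertical axis) against mean log2 expression over the 6 arrays (horizontal axis), 1 point per autosomal gene. Dark grey points passed the test; 24 of 25 Sertoli genes (circles) and 19 of 19 mitosis genes (squares) lie above 0 and passed, and 14 of 21 pregranulosa genes (triangles) lie below 0 and passed.

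The listed genes that mark Sertoli cells were higher in XY cells almost without exception. Of 25 measured Sertoli cell genes, 24 were higher, beside 10.2% of all autosomal genes, and 0 were lower. The figures label this list secreted and surface genes, but it also holds others, such as the steroid enzyme gene Hsd17b3. Nrcam, a cell adhesion molecule, did not pass (difference −0.14, adjusted p = 0.672). The XY cells were collected by Sox9. This list, like the others below, was chosen with earlier results of these data known, so its count is a description only. Lists also share members. Fgf9, Dhh, Ptgds, Hsd17b1, Cyp26b1 and Col9a3, among others, count here and again in lists below. The pregranulosa genes Fst, Bmp2 and Cdkn1b also count in further lists. Counts of lists with shared members are not separate results. The median difference of the list was 1.99, beside 0.04 for all autosomal genes, and the median level of the list was 9.73 to 9.92 on the XY arrays, against 6.93 to 7.08 on the XX arrays.

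The largest difference of any autosomal gene was that of Hsd17b3, the enzyme that converts androstenedione to testosterone and that fetal Sertoli cells express. Hsd17b3 had 11.77, 11.42 and 11.31 on the XY arrays, against 5.54, 5.69 and 5.62 on the XX arrays. The difference was 5.88 ± 0.19 (SE; adjusted p = 8.16e-16), with every XY value above every XX value. Cst9, a cystatin expressed by fetal Sertoli cells, had 12.43, 11.96 and 12.19 in XY cells, against 6.75, 6.96 and 6.59 in XX cells (difference 5.42 ± 0.29, adjusted p = 2.67e-12). Cstdc1, which lies with Cst9 on chromosome 2, differed by 5.09 ± 0.35. Cystatin genes resemble each other, and signal shared between their probe sets was not tested.

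Amh, the hormone that makes the Müllerian ducts regress, had 9.67, 10.12 and 10.17 on the XY arrays, against 6.23, 5.96 and 5.76 on the XX arrays. Its difference was 4.0 ± 0.17 (adjusted p = 1.69e-13). The XY values were far above the XX values, which lay near those of both sexes at 11.5 dpc (means of 6.09 in XY and 5.90 in XX cells). Tesc, which encodes the calcium-binding protein tescalcin, had 12.10, 12.07 and 12.10 in XY cells, against 8.22, 8.07 and 7.55 in XX cells (difference 4.14). The 3 XY values were nearly equal. Defb19, a beta-defensin, differed by 3.59, and Cbln4, a secreted cerebellin, by 3.40. Erbb3, a receptor of the EGF receptor family, differed by 3.10, and Vnn1, a pantetheinase, by 2.84.

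Signals that Sertoli cells send to their neighbours were higher as well. Dhh, the hedgehog ligand that acts on Leydig cell precursors, had 8.55, 8.22 and 7.84 on the XY arrays, against 5.77, 6.43 and 6.13 on the XX arrays (difference 2.09 ± 0.18, adjusted p = 1.22e-08). Of 7 measured hedgehog genes, 2 were higher, beside 10.2% of all autosomal genes, the other being the receptor gene Ptch1 (1.67). Gli1 did not pass (0.07, adjusted p = 0.859). Gdnf, the growth factor of spermatogonial stem cells, differed by 1.99. Inhbb, the beta B subunit of activins and inhibins, differed by 1.40, and Inha, the inhibin alpha subunit, by 1.09. Pdgfa, a platelet-derived growth factor, differed by 0.94. Ptgds, which makes prostaglandin D2, had 10.19, 10.78 and 10.43 in XY cells, against 7.70, 7.30 and 7.04 in XX cells (difference 3.12). Of 7 measured prostaglandin D genes, 2 were higher, beside 10.2% of all autosomal genes, the other being Hpgd (1.70), which degrades prostaglandins. The remaining 5 did not pass, among them the synthase Hpgds (0.17).

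**Figure D2:**
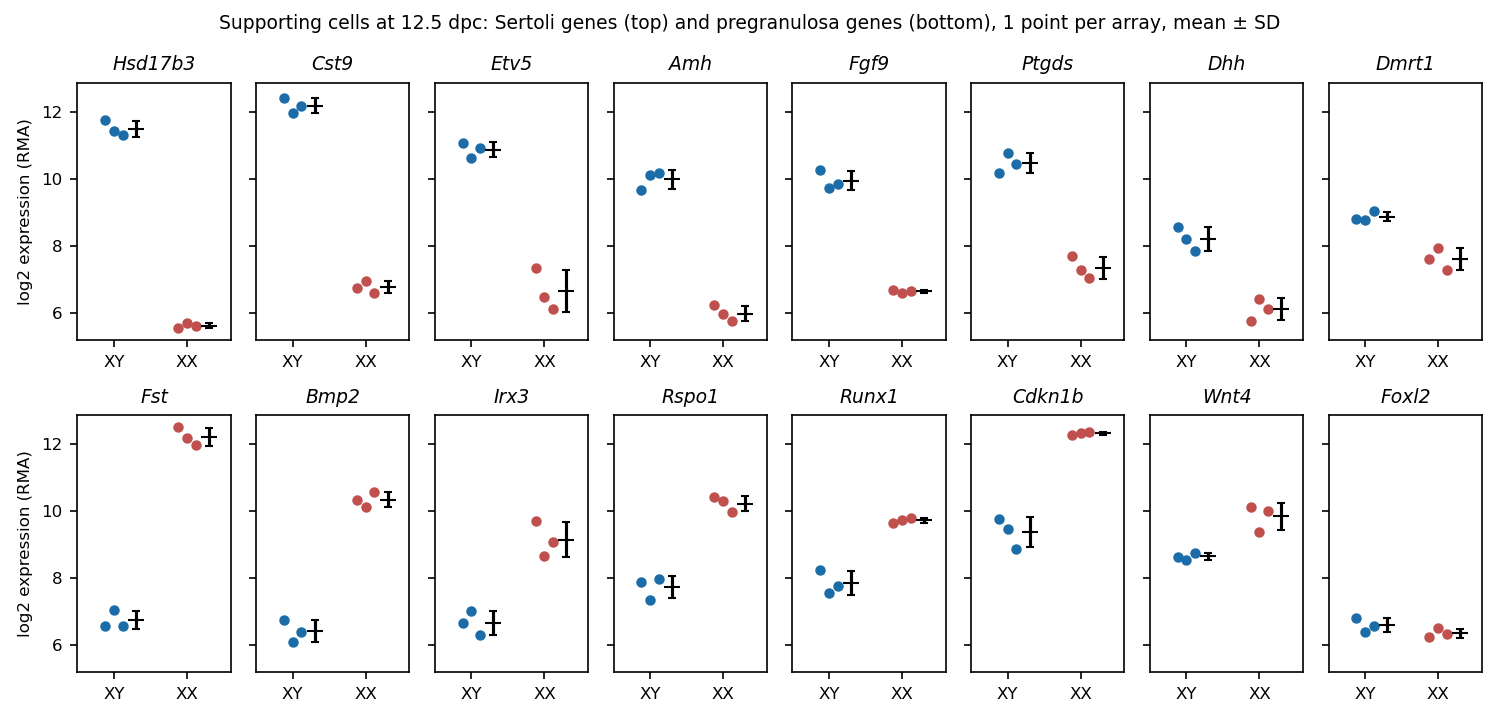
Log2 expression (vertical axis) of 16 genes on the 3 XY (left, blue) and 3 XX (right, red) arrays at 12.5 dpc, with the mean and SD beside each group. The 8 genes of the top row do not overlap between the sexes and are higher in XY; in the bottom row 7 genes are lower in XY without overlap, and the Foxl2 groups overlap.

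Of 11 measured transcription factors of the testis other than Sox9, 5 were higher, beside 10.2% of all autosomal genes, and 0 were lower. The other 6 did not pass, and the median difference of the 11 was 0.39. The higher ones were Dmrt1 (1.26), a factor that maintains the male fate, Sox10 (1.14) and Sox8 (1.11), close relatives of Sox9, Nr5a1 (1.03), a nuclear receptor that activates Amh and steroid enzyme genes, and Sox13 (0.95). Dmrt1 had 8.81, 8.78 and 9.04 on the XY arrays, against 7.61, 7.93 and 7.29 on the XX arrays. No XX value reached those of XY cells.

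Of 14 measured factors of the bipotential gonad, 2 were higher and 2 were lower, beside 10.2% and 5.78% of all autosomal genes, and 10 did not pass. The higher count is near its share. It held Map3k4 (0.67) and Nr5a1 (1.03), which is also counted among the testis factors. The lower ones were the homeobox genes Lhx9 and Emx2, both of which the gonadal ridge needs to form. Lhx9 had 6.83, 6.87 and 6.68 on the XY arrays, against 11.31, 10.84 and 10.47 on the XX arrays (difference −4.08 ± 0.21, adjusted p = 2.24e-12). Emx2 had 5.92, 5.56 and 5.62 in XY cells, against 8.88, 8.73 and 8.95 in XX cells (difference −3.15). At 11.5 dpc Lhx9 averaged 9.53 in XY and 11.18 in XX cells, and Emx2 averaged 7.82 in XY and 8.79 in XX cells.

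The FGF pathway was represented by 15 measured genes, of which 9 were higher and 1 was lower, beside 10.2% and 5.78% of all autosomal genes. The other 5 did not pass, and the median difference of the list was 0.76. The ligand Fgf9 had 10.27, 9.74 and 9.84 on the XY arrays, against 6.69, 6.61 and 6.66 on the XX arrays (difference 3.30 ± 0.16, adjusted p = 8.98e-13). The transcription factor Etv5, a target of FGF signalling, had 11.06, 10.63 and 10.93 in XY cells, against 7.36, 6.49 and 6.13 in XX cells (difference 4.21). Of the 7 feedback inhibitors of the ERK cascade in the list, 5 were higher, with differences of 2.09 for Dusp6, 1.51 for Spry4, 1.30 for Spred2, 0.77 for Spry2 and 0.76 for Dusp4. Their relatives Spred1 (0.51, adjusted p = 0.0507) and Spry1 (0.28, adjusted p = 0.352) did not pass. The receptor Fgfr2, which the XY gonad needs for Sertoli differentiation, went the other way. Fgfr2 had 7.0, 6.39 and 7.0 on the XY arrays, against 10.03, 10.37 and 9.77 on the XX arrays (difference −3.26 ± 0.17, adjusted p = 1.87e-12). Its relative Fgfr1 did not pass (−0.26, adjusted p = 0.413).

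Of 21 measured pregranulosa genes, 14 were lower in XY cells, beside 5.78% of all autosomal genes, 0 were higher and 7 did not pass, with a median difference of −1.20. Fst, which encodes follistatin, a secreted binder of activins and BMPs, had the largest negative difference of any autosomal gene. Fst had 6.59, 7.06 and 6.59 on the XY arrays, against 12.52, 12.18 and 11.98 on the XX arrays. The difference was −5.48 ± 0.16 (adjusted p = 4.84e-16), with no overlap. Bmp2, a BMP ligand of the fetal ovary, had 6.75, 6.09 and 6.40 in XY cells, against 10.33, 10.12 and 10.58 in XX cells (difference −3.93). Gng13, a G protein gamma subunit, differed by −3.32. The homeobox gene Irx3, which ovarian somatic cells express, differed by −2.49, and Runx1, a transcription factor of pregranulosa cells, by −1.87.

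The 7 pregranulosa genes that did not pass included Foxl2, the forkhead factor of the granulosa lineage. Foxl2 had 6.82, 6.41 and 6.59 on the XY arrays, against 6.24, 6.51 and 6.33 on the XX arrays (difference 0.25, adjusted p = 0.369). The groups overlapped, and the difference was −0.06 at 11.5 dpc and −0.06 at 13.5 dpc. Its signal was dim, with a mean of 6.48 over the 6 arrays (percentile 40 among autosomal genes). Whether the probe set of Foxl2 reads its transcript was not tested, so these values do not show equal Foxl2 mRNA. The neighbour of Foxl2 on the opposite strand, Foxl2os, was chosen after its values were seen. The mean of Foxl2os was 7.77 in XY and 10.41 in XX cells (difference −2.64, adjusted p = 3.71e-11). The oestrogen receptor gene Esr2 (0.18) and the R-spondin receptor gene Lgr5 (0.50, adjusted p = 0.101) did not pass either. Kitl, the ligand of the KIT receptor, was lower by a smaller amount (−0.62, adjusted p = 0.0132).

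Of 22 measured genes of the WNT pathway, 10 were lower in XY cells, beside 5.78% of all autosomal genes, and 3 were higher, beside 10.2%. The other 9 did not pass, and the median difference of the list was −0.38. The list shares members with the pregranulosa list, among them Wnt4, Rspo1, Lef1 and Axin2, so these counts are not separate results. With all 36 arrays in the fit, 5 were lower and 1 was higher, and Wnt5a, Lgr4, Nkd1 and Znrf3 were among those that did not pass. Rspo1, the secreted potentiator, had 7.89, 7.35 and 7.98 on the XY arrays, against 10.42, 10.29 and 9.97 on the XX arrays (difference −2.49 ± 0.19). Wnt4 had 8.65, 8.55 and 8.76 in XY cells, against 10.14, 9.39 and 10.02 in XX cells (difference −1.20 ± 0.20, adjusted p = 0.000143). The transcription factor Lef1 differed by −1.85, the feedback inhibitor Axin2 by −1.59, the receptor Lgr4 by −1.04, the inhibitor Nkd1 by −0.92 and Wnt5a by −0.81. The higher count is near its share. It held 3 inhibitors of the pathway: Nkd2 (1.11), the ubiquitin ligase Znrf3 (0.88) and Sfrp1 (0.61). With array weights 1 gene was higher, and Znrf3 and Sfrp1 did not pass. Another secreted inhibitor, Sfrp2, was lower (−0.85), as was Rnf43, a close relative of Znrf3 (−0.58). Beta-catenin itself, Ctnnb1, did not pass (0.33, adjusted p = 0.331).

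Among 23 measured BMP and activin genes, 7 were lower and 3 were higher, beside 5.78% and 10.2% of all autosomal genes, and 13 did not pass. Besides Fst and Bmp2, the lower ones were Bmp4 (−1.15), the target genes Id1 (−1.35), Id2 (−1.18) and Id3 (−1.12), and Msx2 (−0.53). The higher count is near its share. It held Inhbb and Inha, given above, and the inhibitory Smad7 (0.79). The receptors Bmpr1a, Bmpr1b, Acvr2a and Acvr2b and the Amh receptor Amhr2 did not pass. Bmp5, a further ligand outside the list, had 5.84, 5.76 and 5.85 on the XY arrays, against 10.25, 10.23 and 9.97 on the XX arrays (difference −4.33 ± 0.21).

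**Figure D3:**
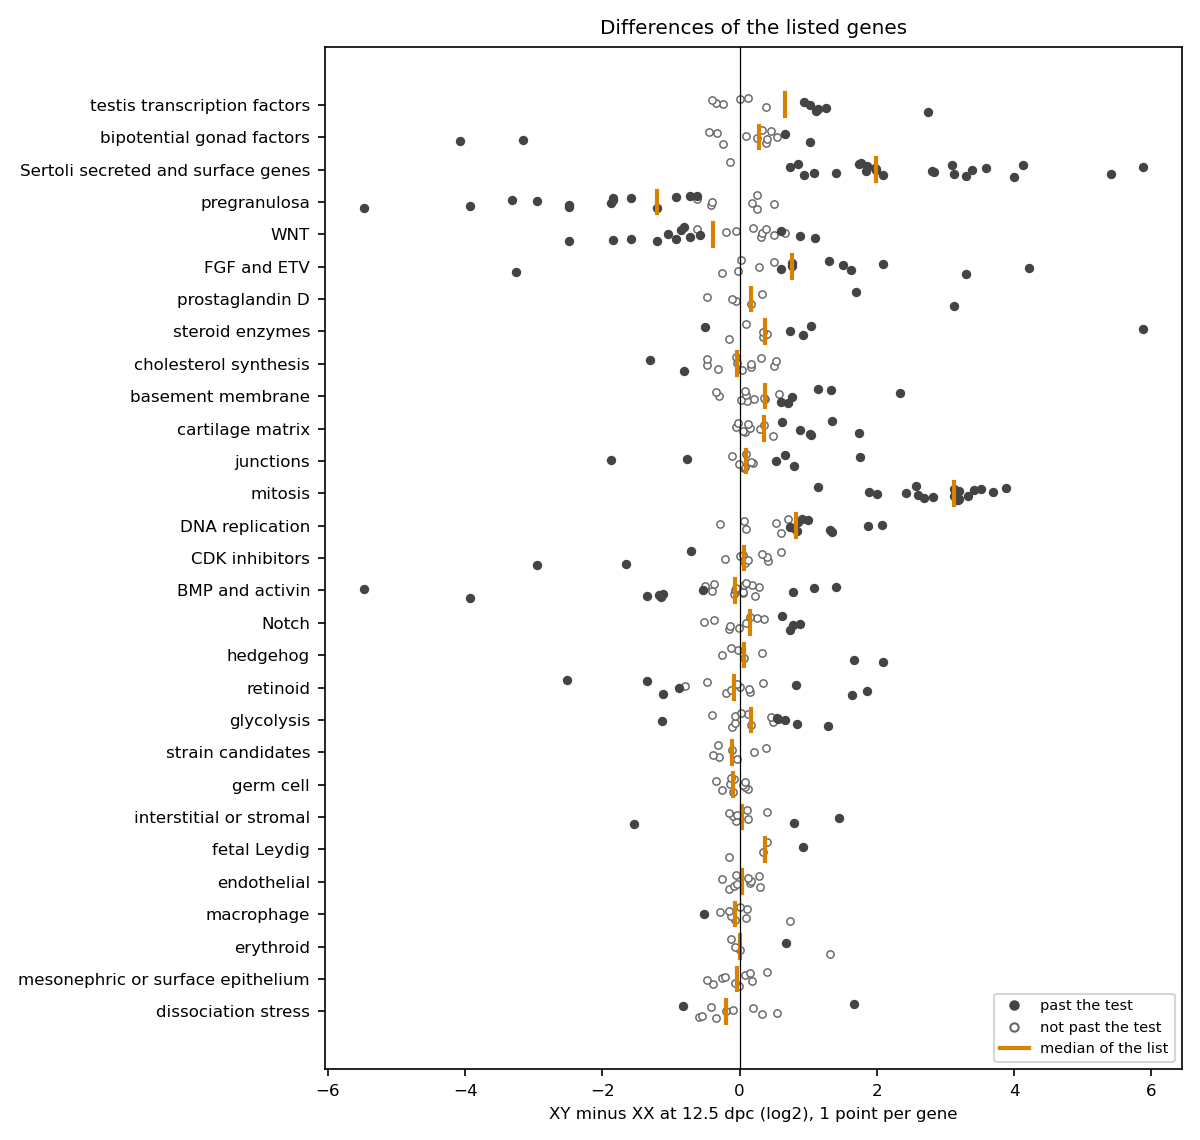
Difference XY minus XX at 12.5 dpc (log2, horizontal axis) of each measured gene of 29 gene lists (rows), with filled points past the test and an orange bar at the median of the list. The medians of the mitosis (3.13) and Sertoli (1.99) lists lie far to the right and that of the pregranulosa list (−1.20) to the left, while the germ cell, endothelial and mesonephric lists hold no gene past the test.

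Genes of cell division were higher in XY cells throughout. Of 19 measured mitosis genes, 19 were higher, against 10.2% of all autosomal genes, with a median difference of 3.13. The median level of the list was 9.97, 9.59 and 9.75 on the XY arrays, against 7.33, 6.93 and 6.53 on the XX arrays. The kinase Cdk1, which starts mitosis, had 10.63, 10.65 and 10.93 in XY cells, against 8.36, 7.99 and 7.42 in XX cells (difference 2.82 ± 0.25, adjusted p = 1.05e-08). Mki67, which encodes the proliferation marker Ki-67, had 9.50, 10.06 and 9.76 in XY cells, against 7.54, 6.19 and 6.07 in XX cells (difference 3.17). Tpx2, a spindle assembly factor, differed by 3.88, the spindle motor Kif11 by 3.69, cyclin Ccnb2 by 3.20 and the kinase Aurka by 2.60. The smallest difference of the list was that of Ube2c, a ubiquitin-conjugating enzyme of the anaphase-promoting complex (1.14). XX replicate 1, the array with the highest germ cell markers, also had the highest mitosis level of the XX arrays. Without it, 19 of 19 genes were still higher and the median difference was 3.34.

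Of 16 measured genes of DNA replication, 10 were higher, beside 10.2% of all autosomal genes, and 0 were lower. The other 6 did not pass, and the median difference of the list was 0.82. With array weights, under which noisier arrays count for less, 6 were higher. The ribonucleotide reductase subunits Rrm2 and Rrm1 differed by 2.07 and 1.88, the helicase subunits Mcm3 and Mcm5 by 1.35 and 1.32, and the sliding clamp gene Pcna by 0.74. Of 12 measured genes for CDK inhibitors and related brakes on the cell cycle, 3 were lower, beside 5.78% of all autosomal genes. Among the rest, 0 were higher and 9 did not pass. The lower count includes Cdkn1b, which is counted among the pregranulosa genes too. Cdkn1b, which encodes p27, had 9.78, 9.47 and 8.88 on the XY arrays, against 12.27, 12.34 and 12.37 on the XX arrays (difference −2.95 ± 0.24, adjusted p = 3.83e-09). Cdkn1c, which encodes p57, had 9.70, 9.35 and 10.04 in XY cells, against 11.49, 11.72 and 10.83 in XX cells (difference −1.65). Gadd45a, a stress-inducible growth arrest gene, differed by −0.71.

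**Figure D4:**
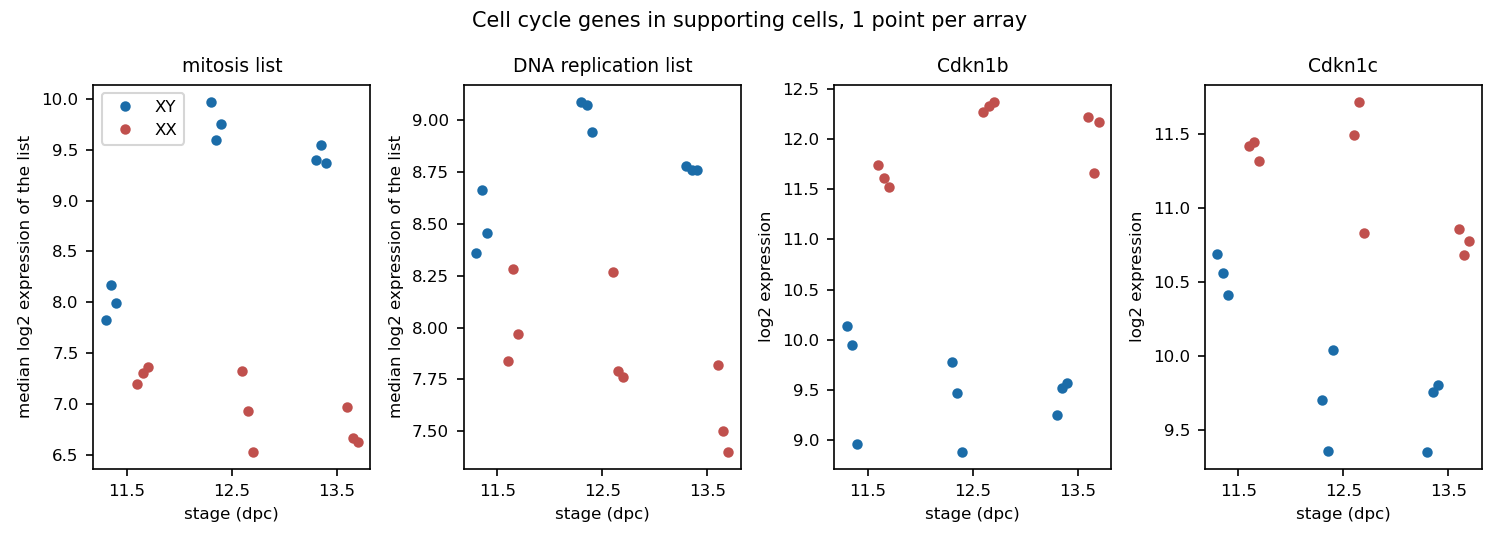
Median log2 expression of the mitosis and DNA replication lists and log2 expression of Cdkn1b and Cdkn1c (vertical axes) in XY (blue) and XX (red) supporting cells by stage (horizontal axis, dpc), 1 point per array. At 12.5 dpc the mitosis level is 9.59 to 9.97 on XY arrays and 6.53 to 7.33 on XX arrays, and Cdkn1b and Cdkn1c are lower on every XY array than on every XX array.

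Because mitosis genes moved together, their promoters are shown, as 250 bases before the gene start from RefSeq (GRCm38.p6), 5′ to 3′ on the strand of the gene. Promoters were listed for 16 of the 19 genes. Capitals mark the CCAAT box (CCAAT, or ATTGG on the other strand), the motif of NF-Y, and the cell cycle homology region (TTTGAA, or TTCAAA on the other strand). These motifs do not overlap each other. Ccnb2 (chr9:70421555-70421804, minus strand), Cdk1 (chr10:69352913-69353162, minus strand), Kif11 (chr19:37376132-37376381, plus strand) and Aurka (chr2:172370571-172370820, minus strand) were chosen as a cyclin, its kinase, a spindle motor and a mitotic kinase.
Ccnb2: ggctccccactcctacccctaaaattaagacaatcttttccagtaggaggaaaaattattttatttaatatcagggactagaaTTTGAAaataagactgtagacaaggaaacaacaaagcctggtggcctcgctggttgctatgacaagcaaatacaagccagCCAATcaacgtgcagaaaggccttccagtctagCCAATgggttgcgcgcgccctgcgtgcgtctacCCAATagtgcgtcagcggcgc
Cdk1: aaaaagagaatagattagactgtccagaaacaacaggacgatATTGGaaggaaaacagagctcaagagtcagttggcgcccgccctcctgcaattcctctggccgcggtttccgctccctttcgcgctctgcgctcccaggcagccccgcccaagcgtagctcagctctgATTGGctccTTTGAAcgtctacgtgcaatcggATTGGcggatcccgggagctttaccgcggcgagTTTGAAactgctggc
Kif11: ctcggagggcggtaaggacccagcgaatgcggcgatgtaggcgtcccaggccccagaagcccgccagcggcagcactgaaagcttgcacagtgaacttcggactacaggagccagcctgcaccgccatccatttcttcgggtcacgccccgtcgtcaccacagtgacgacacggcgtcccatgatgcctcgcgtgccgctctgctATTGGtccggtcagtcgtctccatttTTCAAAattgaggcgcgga
Aurka: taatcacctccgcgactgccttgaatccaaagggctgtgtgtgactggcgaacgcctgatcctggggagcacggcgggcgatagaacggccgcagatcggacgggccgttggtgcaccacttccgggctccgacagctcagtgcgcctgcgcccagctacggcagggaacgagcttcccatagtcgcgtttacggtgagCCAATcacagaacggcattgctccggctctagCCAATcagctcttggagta
The CCAAT box was present in the promoters of 14 of the 16 genes (87.5%), beside 34.2% of all 27025 promoters of this length in the table. TTTGAA was present in 7 of the 16 (43.8%), beside 16.3% of all. The shown promoter of Cdk1 held 3 CCAAT boxes and 2 TTTGAA matches, the shown promoter of Ccnb2 held 3 and 1, that of Kif11 held 1 of each, and that of Aurka held 2 CCAAT boxes and no TTTGAA match. The matches nearest the gene start began 15 bases before it in Cdk1 and 21 bases before it in Ccnb2. Other motifs were searched on both strands in the same way. For the 16 Sertoli genes with a listed promoter, the SOX motif AACAAT was present in 2 (12.5%, beside 9.67% of all), the GATA factor motif AGATAA in 1 (6.25%, beside 10.2%) and the NR5A1 motif AAGGTCA in 0 (beside 4.05%). For the 14 WNT genes with a listed promoter, the TCF/LEF motif CTTTGA was present in 3 (21.4%, beside 14%). A match describes the letters only.

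Of 9 measured steroid genes other than Hsd17b3, 3 were higher and 1 was lower, beside 10.2% and 5.78% of all autosomal genes. The other 5 did not pass, and the median difference of the 9 was 0.35. Scarb1, a receptor that takes up cholesterol from lipoprotein, differed by 1.05, Star, which carries cholesterol into mitochondria, by 0.92, and Hsd17b1 by 0.73. With array weights none of these 3 passed. The electron carrier Fdx1 was lower (−0.51). Cyp11a1, which makes pregnenolone, had 5.59, 6.02 and 6.00 on the XY arrays, against 6.24, 5.76 and 6.07 on the XX arrays (difference −0.15, adjusted p = 0.780). The groups overlapped, and its partner Cyp17a1 did not pass either (0.34). Of 4 measured fetal Leydig markers, 1 (Star) was higher, beside 3 with row sets aligned and 0 with array weights, and the median level of these markers was 5.51 to 6.13 on XY arrays and 5.52 to 6.09 on XX arrays. Of 13 measured genes of cholesterol synthesis, 0 were higher and 2 were lower, beside 10.2% and 5.78% of all autosomal genes. These 2 were Sc5d (−1.31) and Hmgcs1 (−0.81). Without XX replicate 2 neither passed, and the difference of Sc5d was −0.88.

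Retinoid genes differed in both directions. Of 16 measured, 3 were higher and 4 were lower, beside 10.2% and 5.78% of all autosomal genes, and 9 did not pass. Cyp26b1, which degrades retinoic acid in the fetal testis, had 8.91, 8.02 and 9.0 on the XY arrays, against 6.77, 6.93 and 6.64 on the XX arrays (difference 1.86 ± 0.21, adjusted p = 4.73e-07). The retinaldehyde dehydrogenase Aldh1a1 was higher (1.64), and its relative Aldh1a2 was lower (−1.11). The receptor Rara was higher (0.82). Dhrs3, a retinaldehyde reductase, had 7.50, 6.92 and 8.08 in XY cells, against 10.07, 10.03 and 9.93 in XX cells (difference −2.51). Rdh10, which makes retinaldehyde, differed by −1.35, and the retinol transporter Stra6 by −0.88.

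Matrix and junction genes differed in part. Their counts are read beside the 10.2% of all autosomal genes that were higher and the 5.78% that were lower. Of 16 measured basement membrane genes, 6 were higher, 0 were lower and 10 did not pass: Col18a1 (2.34), which encodes the collagen that yields endostatin, the laminin receptor Dag1 (1.34), the collagen-binding protein Sparc (1.15), Nid1 (0.77), Col4a1 (0.71) and Col4a2 (0.60). Of 15 cartilage matrix genes, 6 were higher and 0 were lower, among them the collagen IX chains Col9a3 (1.74), Col9a1 (1.04) and Col9a2 (1.03) and the transcription factor Sox6 (1.34). Of 13 junction genes, 4 were higher and 2 were lower. Jam2, a junctional adhesion molecule, was higher by 1.75 and Cldn11, the claudin of the Sertoli cell barrier, by 0.80, whereas Cgn, which encodes the tight junction protein cingulin, was lower (−1.87), as was F11r, another junctional adhesion molecule (−0.76). Of 10 measured interstitial and stromal markers, Postn (1.45) and Pdgfra (0.80) were higher, Nr2f2 was lower (−1.54) and 7 did not pass. The median difference of this list was 0.03, beside 0.04 for all autosomal genes. Its median level was 7.22 to 7.47 on XY arrays and 6.42 to 6.95 on XX arrays. Its summed level overlapped between the sexes, with 68.77 to 71.41 on XY arrays and 67.12 to 70.63 on XX arrays. The part of interstitial and stromal cells in the matrix values was not tested.

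Of 13 Notch genes, 4 were higher, beside 10.2% of all autosomal genes, and 0 were lower. These 4 were Notch2 (0.88), Notch1 (0.78), Jag1 (0.74) and Nrarp (0.62), and the target genes Hes1 (−0.51) and Hey1 (−0.37) did not pass. Of 15 glycolysis genes, 5 were higher, beside 10.2% of all autosomal genes, and 1, Aldoc, was lower (−1.12). With all 36 arrays in the fit, and with the 6 arrays alone, 2 were higher, and Ldha did not pass in either fit. Hexokinase Hk2 was higher by 1.29, the phosphofructokinase gene Pfkp by 0.84 and lactate dehydrogenase Ldha by 0.55. Calls among the markers of other cell types are read beside the 16% of all autosomal genes called in either direction: they were 3 of 10 for the interstitial or stromal and 1 of 4 for the fetal Leydig markers, given above. Among 10 endothelial, 9 macrophage, 5 erythroid and 10 mesonephric or surface epithelial markers, 1 macrophage gene was lower (Cx3cr1, −0.52) and 1 erythroid gene was higher (Klf1, 0.67). Of 11 dissociation stress genes, Nr4a1 was higher (1.67) and Zfp36 was lower (−0.82). Embryonic globin Hbb-y varied widely, with 11.56, 9.17 and 9.07 on the XY arrays, against 10.84, 5.48 and 9.53 on the XX arrays, and did not pass (adjusted p = 0.485). Because the strains differ between the sexes, 7 genes known to vary between mouse strains, such as Nnt and Glo1, were examined. Of these 7, 0 passed, beside the 16% of all autosomal genes, with differences from −0.38 (Alad) to 0.38 (Ide). With row sets aligned, 1 was lower, and the listed H2-D1 and H2-K1 were not measured. A count over so few genes says nothing of other genes, and the part of strain was not tested.

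Several of the genes with the largest differences lay outside these lists. On the higher side, Robo1, an axon guidance receptor for Slit proteins, had 12.30, 11.64 and 11.99 on the XY arrays, against 7.49, 7.15 and 7.30 on the XX arrays (difference 4.66 ± 0.18, adjusted p = 2.57e-14). Mybl1, a transcription factor of the MYB family, had 10.89, 11.43 and 11.09 in XY cells, against 6.99, 6.07 and 5.81 in XX cells (difference 4.85). The tyrosine kinase gene Ptk2b differed by 4.32, the spindle midzone gene Prc1 by 4.23, Elmo1, an activator of Rac signalling, by 4.14, and the collagen gene Col14a1 by 3.90. Others among the 20 highest were Tmem184a (4.0), the Nogo receptor relative Rtn4rl1 (3.77), the kinetochore gene Spc25 (3.68) and the vesicle release factor Cadps (3.55). The histone gene H2bc4 (3.84) has near-identical copies, so its probe set may read several of them.

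On the lower side, Col12a1, a fibril-associated collagen, had 5.80, 6.43 and 6.31 on the XY arrays, against 11.12, 11.06 and 10.45 on the XX arrays (difference −4.70 ± 0.26, adjusted p = 4.56e-12). Hmcn1, a large basement membrane protein, differed by −4.60, the protocadherin Pcdh18 by −4.19, the heparan sulfatase Sulf1 by −4.03 and the scavenger receptor Colec12 by −3.41. Dock4, a Rac and Rap activator, had 6.76, 6.48 and 7.32 in XY cells, against 11.34, 11.53 and 11.19 in XX cells (difference −4.50). The growth factors Ereg, an EGF family ligand, and Igf1 differed by −3.72 and −3.58, and the arginine and lysine transporter Slc7a2 by −3.77. The imprinted zinc finger gene Zim1 differed by −3.53, and Lrrn1, a leucine-rich repeat neuronal protein, by −3.43. Ifitm3 (−4.57) and Sprr2d (−4.21) belong to families of similar genes, whose probe sets may share signal, and E330013P04Rik (−4.19) is not described further by its name. The 20 lowest genes passed the test under every alternative run, and the 20 highest passed under every alternative whose fit held them.

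The sex difference at 12.5 dpc was then set beside those at 11.5 and 13.5 dpc, which rest on other arrays. At 11.5 dpc, where reporter line and strain were the same in both sexes, 330 autosomal genes (1.73%) were higher and 373 (1.95%) were lower in XY cells. At 13.5 dpc these numbers were 1615 (8.45%) and 1132 (5.93%). Of the 1945 genes higher at 12.5 dpc, 261 (13.4%) were also higher at 11.5 dpc, which is 79.1% of the 330, and 1235 (63.5%) were also higher at 13.5 dpc, which is 76.5% of the 1615. Of the 1104 lower genes, 245 (22.2%) were also lower at 11.5 dpc, which is 65.7% of the 373, and 716 (64.9%) were also lower at 13.5 dpc, which is 63.3% of the 1132. Opposite calls numbered 2 and 9 at 11.5 dpc and 0 and 0 at 13.5 dpc. Of the 20 highest genes, 15 were already called at 11.5 dpc, without Cstdc1, Tmem184a, Amh, H2bc4 and Defb19. Of the 20 lowest, 17 were, without Sulf1, Lrrn1 and Gng13.

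Between 11.5 and 12.5 dpc the difference itself changed for 947 autosomal genes (4.96%), moving up for 672 (3.52%) and down for 275 (1.44%). On the XY side the reporter line and strain change between these stages too, and cannot be told apart from the stage. Of the 25 Sertoli genes, 9 were higher at 11.5 dpc and 18 changed their difference. Amh differed by 0.19 at 11.5 dpc (adjusted p = 0.93) and by 4.0 at 12.5 dpc. Fgf9 went against this, with 3.65 at 11.5 dpc, 3.30 at 12.5 dpc and 2.01 at 13.5 dpc. Of the 19 mitosis genes, 8 were higher at 11.5 dpc, with a list median of 0.78, and 18 changed their difference. The mean of Mki67 was 7.83 in XY and 7.16 in XX cells at 11.5 dpc, and 9.43 in XY and 6.20 in XX cells at 13.5 dpc. Of the 21 pregranulosa genes, 11 were lower and 1 was higher (Lgr5) at 11.5 dpc, and 7 changed their difference. Fst differed by −3.49 at 11.5 dpc and by −5.30 at 13.5 dpc.

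The lowest genes followed different courses between the stages, given here as means without a test of levels between stages. The mean of Dock4 was 10.75 in XY and 11.54 in XX cells at 11.5 dpc. The mean of Sulf1 at that stage was 11.15 in XY and 11.59 in XX cells, against 12.5 dpc values of 7.62 to 8.38 on XY arrays and 11.80 to 12.09 on XX arrays. Bmp5 took another course, with 6.30 in XY and 7.84 in XX cells at 11.5 dpc, beside 12.5 dpc values of 5.76 to 5.85 on XY arrays and 9.97 to 10.25 on XX arrays. Between 12.5 and 13.5 dpc, with the same lines, the difference changed for 37 autosomal genes (0.194%), up for 18 (0.0942%) and down for 19 (0.0995%). Among them were Fgf9, whose difference fell by 1.28 on the log2 scale, and the steroid genes Cyp11a1 and Cyp17a1, whose differences at 13.5 dpc were 1.65 and 1.94.

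**Figure D5:**
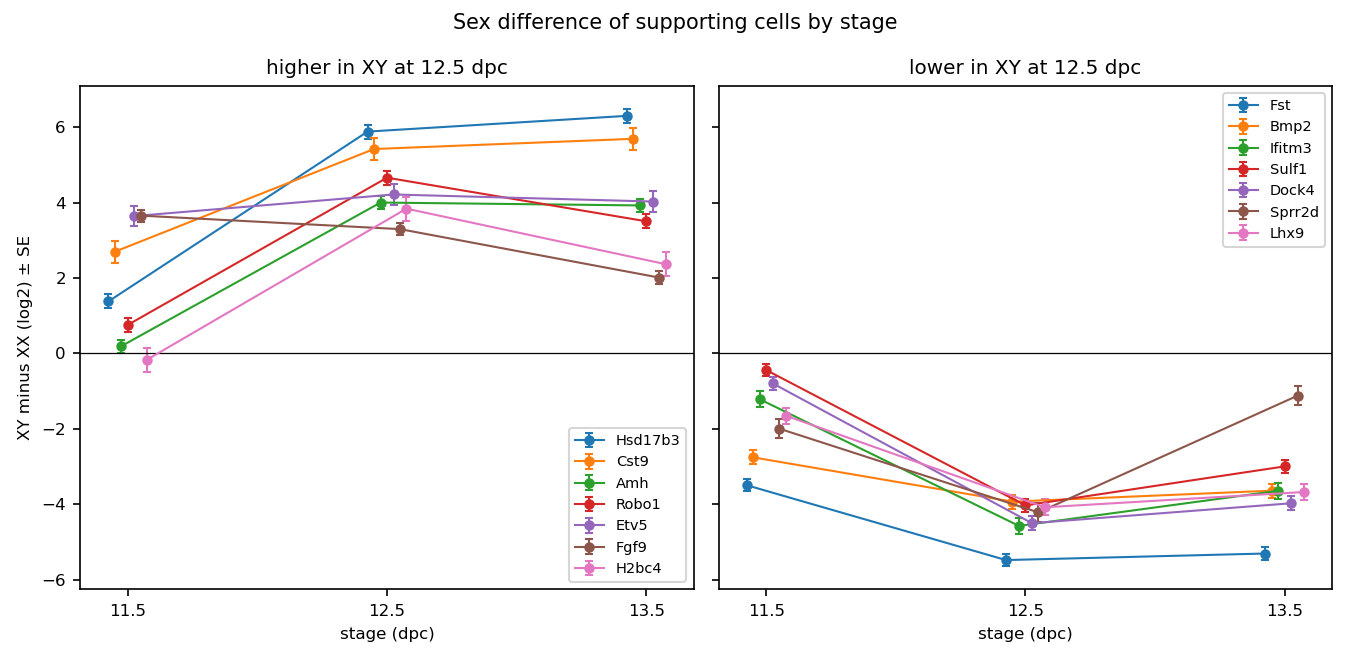
Difference XY minus XX in supporting cells (log2, vertical axis) by stage (horizontal axis, dpc) for 7 genes higher (left) and 7 genes lower (right) in XY at 12.5 dpc, with bars of 1 SE and points set slightly apart. Amh and H2bc4 start near 0 at 11.5 dpc and stand at 4.0 and 3.84 at 12.5 dpc, Fst is lowest at each stage, and Sprr2d is nearer 0 at 13.5 dpc (−1.12) than at 12.5 dpc (−4.21).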

How the data were processed

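The authors deposited log2 expression values; RMA is the tool that the submitters' processing notes name, and its version is not given. The table held 35557 probe sets on 36 arrays. Within each array the probe sets fell into 2 or 3 interleaved sets of rows on separate linear scales (107 sets in all), which no source describes. Judged by the median of each set against that of its array, the sets put −0.28 to 0.35 into the 12.5 dpc difference of a gene. Moving them to a shared scale took these offsets out and also divided the values by the slope of each set (such as 1.012 to 1.049 on XX replicate 2). The deposited values were kept.

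GEO's platform annotation, old in places, gave 1 gene symbol to 21789 probe sets, several to 1621 and none to 12147. Probe sets with 1 symbol were used, the brightest per gene, which left 19938 genes, 19103 of them autosomal by the reference table (GRCm38.p6). No filter on dim genes was set.

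The 18 supporting cell arrays, 6 groups of 3, were fitted with limma 3.58.1 in R 4.3.3 with 1 mean per group, and p-values were adjusted over all 19938 genes (Benjamini-Hochberg, threshold 0.05). The germ cell arrays were left out, since 1 of them stands apart. On simulated data for the 12.5 dpc comparison with 19938 genes, the fit recovered 85% of genes changed by 1 and 98% of those changed by 2 on the log2 scale. Replicate numbers were not used to pair the arrays in this fit. Deviations from the group means of same-numbered XY and XX arrays correlated at −0.53, −0.23 and −0.29. Those of unlike-numbered XY and XX arrays correlated at −0.26 to 0.51. Deviations within a group of 3 depend on each other, so these values cannot decide whether same-numbered arrays were handled together.

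The members and gene lists were chosen with earlier results of these data known. Named genes are the 20 highest and 20 lowest among called autosomal genes without overlap between groups, members of 29 lists, and for each change between stages the 10 highest and 10 lowest, beside Xist and Eif2s3y. Python 3.11.15 was used for tables and figures.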

Additional observations from a re-analysis of the deposited data

Results flagged for a closer look

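The sex difference at 12.5 dpc differed from that at 11.5 dpc, by a test of the change itself in limma, for 947 autosomal genes. The 10 largest upward changes (log2, 12.5 minus 11.5 dpc difference) were those of Hsd17b3 (4.50), H2bc4 (4.0), Robo1 (3.90), Cstdc1 (3.88), Amh (3.81), the mitotic kinesin Kif15 (3.43), the troponin gene Tnnc1 (3.39), Sel1l3 (3.34), the chymotrypsinogen gene Ctrb1 (3.18) and Kazald1 (3.18). The 10 largest downward changes were those of Dock4 (−3.71), Sulf1 (−3.59), Ifitm3 (−3.36), the small nucleolar RNA Snora75 (−3.34), Hmcn1 (−3.33), Col12a1 (−3.18), the adrenomedullin receptor component Calcrl (−3.16), the microRNA gene Mir18 (−3.02), Lrrn1 (−2.95) and the myosin light chain gene Myl9 (−2.84). Of these, Snora75 had 6.47, 7.03 and 6.24 on the XY arrays at 12.5 dpc, against 7.49, 10.14 and 8.66 on the XX arrays, so its XX arrays spread widely. The reporter line and strain of the XY cells also differ between these stages and cannot be told apart from the stage.

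The sex difference at 13.5 dpc differed from that at 12.5 dpc, by the same kind of test, for 37 autosomal genes. The upward changes (log2, 13.5 minus 12.5 dpc difference) were led by Sprr2d (3.10), Igfbp3 (2.40), 4930486L24Rik (2.17), Cntnap5a (1.92), Cyp11a1 (1.80), Jam2 (1.70), Ctnna2 (1.66), Adm (1.65), Cyp17a1 (1.60) and Nfib (1.56). The downward ones were led by Mgp (−1.84), Gem (−1.79), Fam83d (−1.74), Nell1 (−1.67), Ifitm1 (−1.66), Lrp4 (−1.64), Glb1l2 (−1.62), Slc41a2 (−1.56), Gstm7 (−1.53) and Thbs2 (−1.44). Cyp11a1 averaged 7.06 in XY and 5.41 in XX cells at 13.5 dpc, and Cyp17a1 averaged 7.47 in XY and 5.53 in XX cells. Of the 4 measured fetal Leydig markers, 4 were higher in XY cells at 13.5 dpc, beside 8.45% of all autosomal genes. At 12.5 dpc 1 was higher, beside 10.2%, and the count was 3 with row sets aligned and 0 with array weights. Cyp11a1 and Cyp17a1 are among these markers, so the counts are not separate from the changes named above. The part of Leydig cell RNA in these values was not tested. Thbs2, which encodes the matrix protein thrombospondin 2, averaged 5.66 in XY and 9.29 in XX cells at 13.5 dpc. Without at least 1 array, Cyp11a1, Cyp17a1, Gem, Gstm7, Igfbp3, Mgp and Nfib lost the call.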

How the results depend on the processing

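The 20 highest and 20 lowest genes at 12.5 dpc passed the test under every alternative whose fit held them. Checks of a gene under an alternative numbered 340 for the lowest and 339 for the highest, which were not all in every fit. The 3049 calls at 12.5 dpc became 2022 with all 36 arrays in the fit, 4631 with row sets aligned, 1818 with array weights, 1169 with a difference of at least 1 required, 2240 with the 6 arrays alone, and 2481 to 3523 without 1 array. Of the 3049 genes, 2888 were also called in the same direction with row sets aligned. The 947 changes from 11.5 dpc became 429 with all 36 arrays, 1426 with row sets aligned and 690 to 1211 without 1 array. The 37 changes to 13.5 dpc became 13 with all 36 arrays, 74 with row sets aligned, 24 among the brighter genes and 18 to 63 without 1 array: 63 without XY replicate 2 at 12.5 dpc, 20 without XX replicate 2 at 13.5 dpc, and 18, 24 and 19 without XY replicates 1, 2 and 3 at 13.5 dpc. The 147 called list members became 97 with a difference of at least 1 required, 117 with array weights, 120 with all 36 arrays, 134 with the 6 arrays alone, 172 with row sets aligned and 135 to 150 without 1 array. With the replicate block, the counts were 2850 at 12.5 dpc, 933 for the change from 11.5 dpc and 51 for the change to 13.5 dpc. Hk1 reversed, from −0.11 to 0.58, when its probe sets were averaged.

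List members that lost the call at 12.5 dpc without 1 array were Cx3cr1, Fdx1, Gadd45a, Klf1, Msx2, Nrarp, Rnf43, Sfrp1 and Znrf3 without XX replicate 1, Cx3cr1, Espn, Fdx1, Gadd45a, Hmgcs1, Klf1, Mcm4, Pcna, Sc5d, Sfrp1, Sox5, Sp5 and Spry2 without XX replicate 2, and Dusp4, Etv4, Gins1, Hsd17b1, Ldha, Map3k4, Nid1, Notch2, Nrarp, Pfkp, Rnf43 and Znrf3 without XX replicate 3. They were Cx3cr1, Dusp4, Gadd45a, Hsd17b1, Klf1, Ldha, Mcm4, Msx2, Notch2, Pfkp, Rnf43, Sfrp1, Sox5 and Znrf3 without XY replicate 1, Espn, Fdx1, Gins1, Hmgcs1, Kitl, Map3k4, Sox5 and Sp5 without XY replicate 2, and Cx3cr1, Dusp4, Espn, Etv4, Fdx1, Gadd45a, Map3k4, Msx2, Nid1, Notch2, Nrarp, Pfkp, Rnf43, Sp5 and Znrf3 without XY replicate 3. Their differences without an array were 0.32 to 0.88 in size. With row sets aligned, Hmgcs1, Msx2 and Sfrp1 lost the call, with differences of 0.36 to 0.60 in size, and 28 other members gained one. With array weights 31 members lost the call, among them Star, Scarb1, Hsd17b1, Id2, Sc5d, Smad7, Aldoc, F11r, Pdgfra and Zfp36. With all 36 arrays 27 did, among them Aldh1a2, Wnt5a, Lgr4, Nkd1, Nid1, Gadd45a, Pdgfra, Zfp36 and Znrf3. With the 6 arrays alone 17 did, among them Col4a2, Kitl, Ldha and Map3k4. List counts that moved by over 1.5 times were also those of the higher bipotential factors (5 with row sets aligned, beside 2), the higher junction genes (2 with the 6 arrays alone, beside 4), the higher Notch genes (2 with array weights, among brighter genes, and without XX replicate 3 or XY replicate 3, beside 4), the higher glycolysis genes (3 with array weights and without XX replicate 3 or XY replicate 1, beside 5), the higher WNT genes (1 with quantile normalisation, array weights, or without XX replicate 1 or XY replicate 1, and 5 without XY replicate 3, beside 3) and the lower cholesterol genes (0 with array weights and 4 without XX replicate 3, beside 2). The causes were not tested.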

Other observations

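The genes in this paragraph were chosen after their values were seen, for large differences at 12.5 dpc outside the named genes, and stand for no gene group. Gabra4 and Gabrb1, which encode subunits of GABA-A receptors, differed by −3.24 and −3.02, the intracellular calcium channels Ryr2 and Itpr2 by −3.14 and −2.83, and the voltage-gated calcium channel Cacna1d by −3.14. Cacna1d averaged 6.38 ± 0.39 in XY and 9.53 ± 0.09 in XX cells (SD, n = 3 each; limma adjusted p = 5.27e-12). Kcnh1, a potassium channel, and Cacna2d2, an auxiliary calcium channel subunit, went the other way (2.77 and 2.66). Igf2, a growth factor that is also imprinted, averaged 8.59 ± 0.26 in XY and 11.49 ± 0.07 in XX cells (SD, n = 3 each), a difference of −2.90 (limma adjusted p = 8.98e-13), and the binding protein gene Igfbp5 differed by −3.10. Higher in XY cells were Erbb4 (3.11), a receptor that pairs with Erbb3, the alcohol dehydrogenase Adh1 (3.13), the mitochondrial coactivator Ppargc1a (3.07) and the matrix metalloproteinase Mmp2 (3.04).

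The share of autosomal genes past the test at 12.5 dpc ran from 12.5% on chromosome 7 to 19.7% on chromosome 3, beside 16% over all autosomes.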
